A study of Homo sapiens with 6 samples.

Results

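The melanocortin, endothelin and KIT genes form a set of 10 of the 60504 genes counted in WM164 melanoma cells, chosen by gene symbol. They are the ligand genes POMC, EDN1 and KITLG, the receptor genes MC1R, EDNRA, EDNRB and KIT, and the G protein alpha subunit genes GNAQ, GNA11 and GNAS. WM164 is an established human melanoma cell line with the BRAFV600E mutation, which every library shares. RNA-seq was made of cells with an empty expression vector (EV, 3 libraries) and of cells with an HDAC8 expression vector (HDAC8, 3 libraries). HDAC8 is a histone deacetylase. The vectors were transfected and the cells kept under hygromycin, and whether a line was 1 clone or a pool is not given in the sources used here. The labels number biological replicates, but nothing says that these were separate cultures, so p-values measure the spread between these libraries, which may be technical.

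Pigment cells read several outside signals through these genes. POMC is cut into melanocortin peptides that activate MC1R, a receptor coupled through the stimulatory G protein encoded by GNAS to adenylyl cyclase and cAMP, a route known for switching pigment synthesis to the dark form of melanin. Endothelins act on EDNRA and EDNRB, which work through the Gq family proteins encoded by GNAQ and GNA11, phospholipase C and protein kinase C. KITLG encodes the ligand of the receptor tyrosine kinase KIT, and both KIT and EDNRB are needed for pigment cell precursors to survive and migrate in development.

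Library totals ran from 34741083 to 42041462 counts, and depth overlapped between the groups. The gene carried by the vector comes first. HDAC8 had normalized counts of 383.8, 404.4 and 478.8 in EV and 484.8, 445.5 and 473.7 in HDAC8, with a log2 fold change of 0.15 ± 0.28 (SE, adjusted p = 0.856 by DESeq2). The groups overlapped, so the labels could not be checked by this transcript, and each direction given here is that of the libraries labelled HDAC8. HDAC8 1 stood apart from HDAC8 2 on the second principal component (43.72 against -47.13). Mitochondrially encoded genes took 9.66% to 12.8% of the counts in EV and 4.46% to 7.94% in HDAC8, with the lowest share in HDAC8 1. All 8 melanocyte lineage markers examined were detected. Their summed length-scaled level was 5290 to 6720 in EV and 3180 to 4740 in HDAC8, most of it from PMEL. DESeq2 called 5 of the 8 lower (MLANA, TYR, DCT, PMEL and S100B) and did not call MITF, SOX10 or TYRP1. Over all genes with an adjusted p, 5.44% were called lower. The part of these markers in the results for the members was not tested.

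EDNRB was higher in the libraries labelled HDAC8 and was the 1 member that passed both thresholds. MC1R, KITLG, GNAS and GNAQ had lower means there, of which GNAS had an adjusted p under 0.05 but a change under the fold minimum. GNA11 did not differ detectably. POMC, EDN1, EDNRA and KIT had reads in 1 library or in none. Called genes are those with a DESeq2 adjusted p under 0.05 and a change of 0.58 or more on the log2 scale, up or down. Of the 10 members, 7 had 10 or more counts in total and were tested, 6 of these had an adjusted p, and 1 was called. That is 16.7% of 6 members against 11% of all genes with an adjusted p, where 5.57% were called higher and 5.44% lower. Groups were fully separate in 3 of the 7 members tested, or 42.9%, against 24% of all genes tested. The genes behind these shares were not matched for expression level. The median log2 fold change of the members tested was -0.51, and that of all genes tested was 0. In bulk RNA a change per cell cannot be told apart from a change in the share of cells that express a gene.

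**Figure D1:**
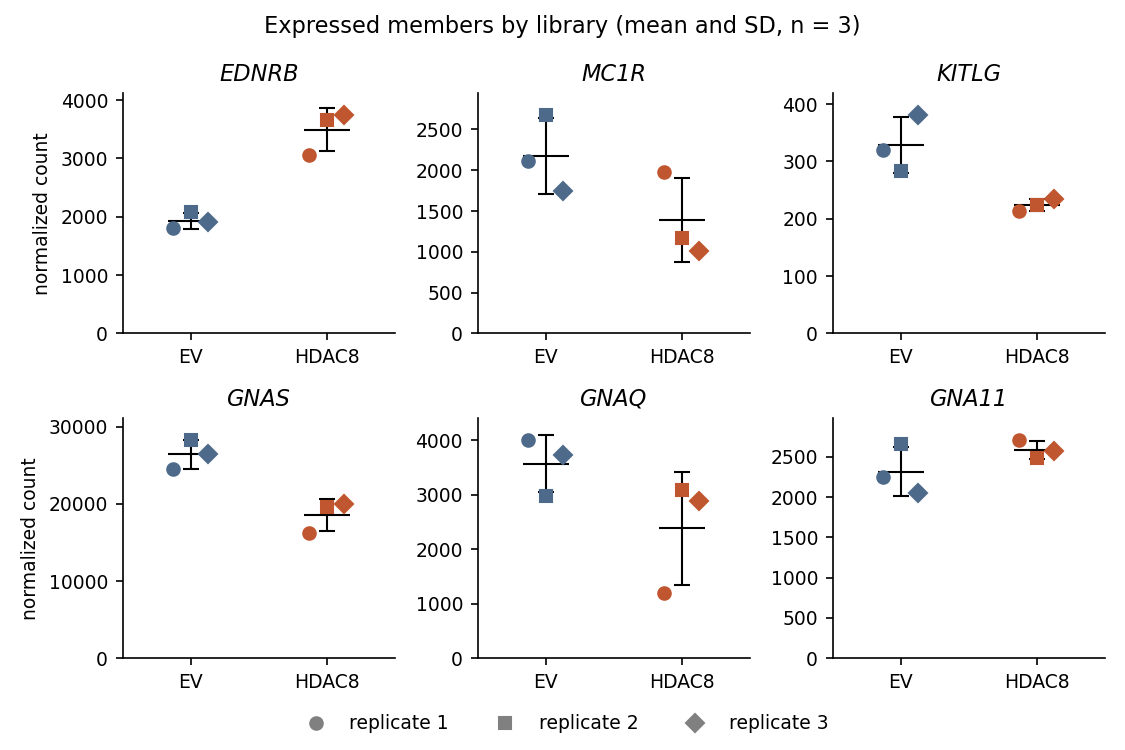
Normalized counts (y axis, linear from 0) of the 6 members with reads in every library, in the EV and HDAC8 groups (x axis). Points are libraries, with 1 marker shape for each replicate number, and bars are the mean and SD of 3 libraries. All HDAC8 libraries lie above all EV libraries for EDNRB and below them for KITLG and GNAS, and HDAC8 1 is the highest of its group for MC1R and the lowest for GNAQ.

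Promoter sequence was read from RefSeq windows (GRCh38.p14) that run from 250 bases before to 50 after a gene's start. Such windows existed for 9 of the 10 members, and none was found for GNAQ. Motifs were searched on both strands, the E-box letters CATGTG and CACGTG, to which MITF can bind, the AP-1 motif TGACTCA and the cAMP response element TGACGTCA. The stretches shown are those of the expressed receptors MC1R and EDNRB, whose means differed between the groups in opposite directions and which each held CATGTG. Each is printed 5′ to 3′ on the gene's strand with the motif in capitals, and stops before the first UTR base that GENCODE 44 annotates there. Both stretches lie inside the annotated span of their gene, since longer transcripts start farther upstream. The MC1R stretch is chr16:89918612-89918850 on the plus strand, and the EDNRB stretch is chr13:77919769-77919932 on the minus strand.
MC1R: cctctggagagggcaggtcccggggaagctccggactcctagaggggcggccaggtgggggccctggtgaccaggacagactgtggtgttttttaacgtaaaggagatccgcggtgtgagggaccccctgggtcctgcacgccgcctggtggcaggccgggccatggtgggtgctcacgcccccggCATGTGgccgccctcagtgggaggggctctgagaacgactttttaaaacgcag
EDNRB: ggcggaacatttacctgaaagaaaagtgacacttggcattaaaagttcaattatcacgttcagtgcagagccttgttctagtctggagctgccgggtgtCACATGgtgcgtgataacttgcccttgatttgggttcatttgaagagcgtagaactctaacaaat
In MC1R the motif lay at -64 to -59 from the start, on the gene's own strand. In EDNRB it lay at -151 to -146 on the opposite strand, so its reverse complement, CACATG, is what is printed. The other EDNRB window held none of the motifs. CATGTG occurred in 11.1% of all 35116 windows, CACGTG in 7.26%, TGACTCA in 4.95% and TGACGTCA in 1.85%. Some members have several windows. Of the 17 windows of the members, 4 held CATGTG (in 3 members), 1 CACGTG, 1 TGACTCA and 0 TGACGTCA. Among its several windows GNAS held both E-box motifs and the AP-1 motif, and the other 6 members with a window held none. These are matches of letters only, and binding was not measured in these libraries.

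The ligand genes were at low levels or without reads. POMC, the melanocortin precursor (ENSG00000115138, chromosome 2, 25160853 to 25168903, minus strand, GENCODE 44 on GRCh38), had 0 counts in all 6 libraries. A count of 0 allows up to 3 counts, or 2.57 to 3.27 after normalization, and this floor covers counting error only. EDN1, the endothelin-1 gene, had 7 counts in HDAC8 1 and 0 in the other libraries. Neither POMC nor EDN1 had enough counts to be tested, and no difference was detectable at this depth.

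KITLG (ENSG00000049130, chromosome 12, 88492793 to 88580851, minus strand) was the expressed ligand gene. It had normalized counts of 319.8, 283.9 and 380.3 in EV and 213.8, 224.3 and 234.1 in HDAC8. Every HDAC8 library was below every EV library. The mean was 328 ± 48.7 in EV and 224.1 ± 10.2 in HDAC8 (SD, n = 3), a ratio of 0.683. DESeq2 gave a log2 fold change of -0.55 ± 0.35 (SE, adjusted p = 0.365), with a 95% interval from -1.23 to 0.13. KITLG was not called in any of its 15 alternatives, and the interval holds both no change and a fall well past the fold minimum.

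Among the receptors, EDNRB (ENSG00000136160, chromosome 13, 77895481 to 77975529, minus strand) rose. It had normalized counts of 1809.9, 2080.8 and 1905.2 in EV and 3065.5, 3661.3 and 3739.5 in HDAC8. The groups did not overlap, and HDAC8 1 was the lowest of the HDAC8 libraries. The mean went from 1932 ± 137 to 3489 ± 369 (SD, n = 3), a fold of 1.81. On the log2 scale the difference was 0.85 ± 0.16 (SE, DESeq2 adjusted p = 7.11e-06), with a 95% interval of the fold from 1.44 to 2.26. EDNRB was called by edgeR (adjusted p = 0.000777) and limma-voom (adjusted p = 0.00233) as well. With each library left out in turn the log2 fold change ran from 0.80 to 0.94. It was not called when tested against the fold minimum itself (DESeq2 adjusted p = 1). The overlapping genes of EDNRB held few reads, at most 42 counts in a library, for the opposite-strand gene OBI1-AS1.

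The genes most like EDNRB were sought among 14451 genes over the 6 libraries, by the root mean square difference of centred log2 normalized counts. PMEPA1 was nearest (0.037), followed by TMEM185B (0.047) and RNF24 (0.053). Their log2 fold changes were 0.86, 0.78 and 0.87. By this measure genes with a fold change close to that of EDNRB come first.

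EDNRA, the other endothelin receptor gene, had 11 counts in HDAC8 1 and 0 in the other 5 libraries. It passed the filter on total counts through that library alone and received no adjusted p (DESeq2 unadjusted p = 0.296). KIT had 3 counts in EV 2 and 0 elsewhere, which is at the floor. The EDN1 and EDNRA reads thus came from the same library, HDAC8 1. Of the receptor genes, EDNRB and MC1R had reads in every library.

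MC1R (ENSG00000258839, chromosome 16, 89912119 to 89920973, plus strand) had normalized counts of 2117.1, 2673.8 and 1747.6 in EV and 1975.2, 1174.7 and 1012.7 in HDAC8. The groups overlapped through HDAC8 1, which lay above EV 3, while HDAC8 2 and HDAC8 3 lay below all EV libraries. The mean was 2180 ± 466 against 1388 ± 515 (SD, n = 3). DESeq2 gave a log2 fold change of -0.65 ± 0.26 (SE, adjusted p = 0.0742), with a 95% interval from -1.15 to -0.15, and MC1R was not called. Without HDAC8 1 it was -1.0 (DESeq2 adjusted p = 3.68e-05), and without EV 2 it was -0.48 (DESeq2 adjusted p = 0.357). With at least 10 counts required in every library the adjusted p of DESeq2 was 0.0497, just under the threshold. Its 16 alternatives include a count together with a neighbouring gene, given below. Over them the adjusted p ran from 3.68e-05 to 1 (DESeq2, edgeR and limma-voom).

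MC1R shares reads with its neighbours, which bears on its level. A readthrough gene on the same strand (ENSG00000198211) shares 1192 exon bases with MC1R. Its normalized counts were 1244.7, 1300.0 and 819.6 in EV and 222.3, 155.7 and 434.5 in HDAC8, so the groups did not overlap. It was called lower, with a log2 fold change of -2.05 ± 0.35 (SE, adjusted p = 3.27e-07 by DESeq2). The readthrough gene took 37.0%, 32.7% and 31.9% of the counts given to both genes in EV, and 10.1%, 11.7% and 30.0% in HDAC8. With both genes counted together, an alternative chosen after seeing the data, the counts were 3360.2, 3976.7 and 2554.3 in EV and 2197.4, 1330.9 and 1447.2 in HDAC8. The groups then no longer overlapped, and the log2 fold change was -0.99 (DESeq2 adjusted p = 0.000255). All counts of the readthrough gene were added, also any from outside the 1192 shared bases, so this is not a value of MC1R alone. How the authors' counting divided shared reads between these genes was not tested. An opposite-strand gene that shares 899 exon bases (ENSG00000259006) went from 540.5 ± 61.6 to 219.3 ± 20.2 normalized counts (SD, n = 3), and strand-specific counting is not given in the sources used here. TCF25, which shares 547 exon bases with MC1R on the same strand, had a log2 fold change of 0.02 (DESeq2 adjusted p = 0.978). TUBB3, the next gene along, shares none and had a log2 fold change of -0.20 (DESeq2 adjusted p = 0.596).

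**Figure D2:**
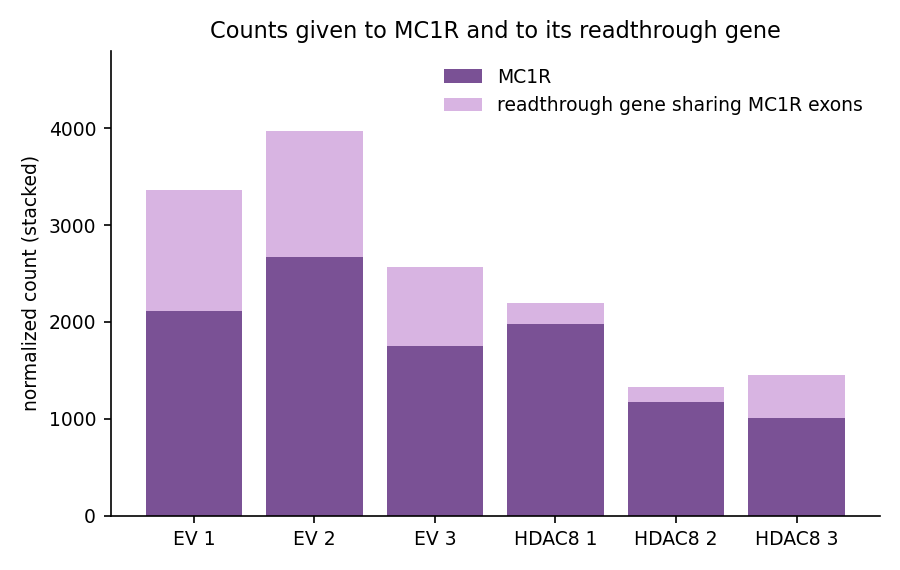
Normalized counts (y axis, stacked, linear from 0) given to MC1R and to the readthrough gene that shares part of its exons, in each of the 6 libraries (x axis). For MC1R alone HDAC8 1 lies within the EV libraries, and for the stack every HDAC8 library lies below every EV library.

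GNAS, which encodes the stimulatory alpha subunit (ENSG00000087460, chromosome 20, 58839718 to 58911192, plus strand), had normalized counts of 24528.9, 28290.7 and 26441.8 in EV and 16253.4, 19575.6 and 19992.1 in HDAC8. Every HDAC8 library was below every EV library. The mean was 26420 ± 1880 in EV and 18610 ± 2050 in HDAC8 (SD, n = 3), a ratio of 0.704. On the log2 scale the difference was -0.51 ± 0.13 (SE, DESeq2 adjusted p = 0.00231), with a 95% interval from -0.77 to -0.25, so GNAS was not called because its change was under the fold minimum. It ran from -0.56 to -0.42 over the 15 alternatives. The locus makes several imprinted transcripts, and counts per gene do not separate them.

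GNAS-AS1, the antisense transcript of the locus, moved the other way. Its normalized counts were 23.1, 24.3 and 25.6 in EV and 199.2, 73.7 and 159.0 in HDAC8. The groups did not overlap, and HDAC8 2 was the lowest of its group. The ratio of the means was 5.92, with a log2 fold change of 2.57 ± 0.66 (SE, adjusted p = 0.00173 by DESeq2). GNAS-AS1 shares 1127 exon bases with GNAS, where the strands cannot be told apart without stranded counting. Its counts were 0.0868% to 1.22% of those of GNAS.

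GNAQ (ENSG00000156052, chromosome 9, 77716097 to 78031811, minus strand), a Gq alpha subunit gene, had normalized counts of 4000.4, 2978.3 and 3732.6 in EV and 1193.7, 3076.6 and 2884.6 in HDAC8. HDAC8 1 was far below the others, and HDAC8 2 lay above EV 2, so the groups overlapped. DESeq2 gave a log2 fold change of -0.58 ± 0.27 (SE, adjusted p = 0.152), and GNAQ was not called. It was -0.26 without HDAC8 1 (DESeq2 adjusted p = 0.294) and -0.80 without HDAC8 2 (DESeq2 adjusted p = 0.0413, called). The value therefore rests on which of these libraries is kept, and over 15 alternatives the adjusted p ran from 0.0413 to 1 (DESeq2, edgeR and limma-voom).

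GNA11 (ENSG00000088256, chromosome 19, 3094362 to 3123999, plus strand), the close relative of GNAQ, had normalized counts of 2246.1, 2656.1 and 2049.1 in EV and 2708.0, 2483.6 and 2567.8 in HDAC8. The groups overlapped. On the log2 scale the difference was 0.16 ± 0.17 (SE, DESeq2 adjusted p = 0.677), with a 95% interval from -0.17 to 0.49 that does not reach the fold minimum. The ratio of the length-scaled levels of GNAQ and GNA11 was 1.61, 1.01 and 1.64 in EV and 0.397, 1.12 and 1.01 in HDAC8. On this scale GNA11 exceeded GNAQ in HDAC8 1 alone, but the order depends on the length used: with the longest transcript, GNA11 averaged 37.4 and GNAQ 35.4 in EV. The sum of both length-scaled levels was 72.7 ± 10.6 in EV and 73.8 ± 11.7 in HDAC8 (SD, n = 3). This scale serves to compare genes, and it gave a higher HDAC8 level relative to EV than normalized counts did. For GNAQ the level went from 42.4 to 33.4, where mean normalized counts went from 3570 to 2385. For GNA11 the level went from 30.3 to 40.4, where mean normalized counts went from 2317 to 2586. The sum is therefore no comparison of the groups.

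**Figure D3:**
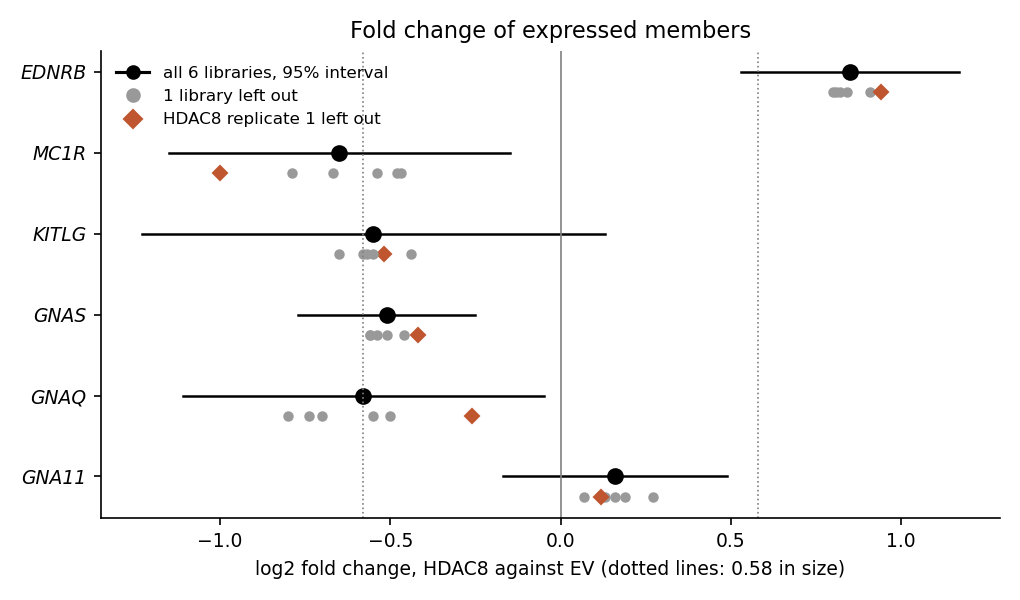
Log2 fold change of HDAC8 against EV (x axis) for the 6 members with reads in every library (y axis). Black points and lines are the DESeq2 estimate from all 6 libraries and its 95% interval, grey points are fits with 1 library left out, orange diamonds are fits without HDAC8 1, and dotted lines mark 0.58 in size. EDNRB stays at 0.80 or above in each of these fits, while MC1R moves to -1.0 and GNAQ to -0.26 without HDAC8 1.

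Levels were compared between genes per length, as counts per kilobase of annotated exon scaled to the same total in every library. The scale serves to compare genes within a library, not a gene between the groups. In EV the order was GNAS (97.4 ± 4.44), GNAQ (42.4 ± 9.52), MC1R (37.6 ± 8.07), GNA11 (30.3 ± 4.31), EDNRB (28.2 ± 1.64) and KITLG (4.34 ± 0.67; SD, n = 3). GNAS was above and KITLG below the others in every EV library, and neighbours from GNAQ to EDNRB overlapped. In HDAC8 EDNRB (61.0 ± 5.78) followed GNAS (82.1 ± 8.13), ahead of GNA11 (40.4 ± 2.89), GNAQ (33.4 ± 14.0), MC1R (28.7 ± 11.2) and KITLG (3.54 ± 0.18; SD, n = 3). EDNRB no longer overlapped with either neighbour, while GNA11, GNAQ and MC1R overlapped. The ratio of EDNRB to MC1R on this scale was 0.725, 0.66 and 0.925 in EV and 1.32, 2.65 and 3.13 in HDAC8. MC1R was thus the higher of the 2 receptors in all 3 EV libraries and EDNRB in all 3 HDAC8 libraries. With the longest transcript as the length, the level of GNAS was 244 in EV and 198 in HDAC8, since its annotated exons add up to 22221 bases and its longest transcript to 7318. EDNRB kept its place with that length too, at 29.2 in EV, below GNAQ (35.4), GNA11 (37.4) and MC1R (40.5), and at 60.8 in HDAC8, above GNA11 (48.2).

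**Figure D4:**
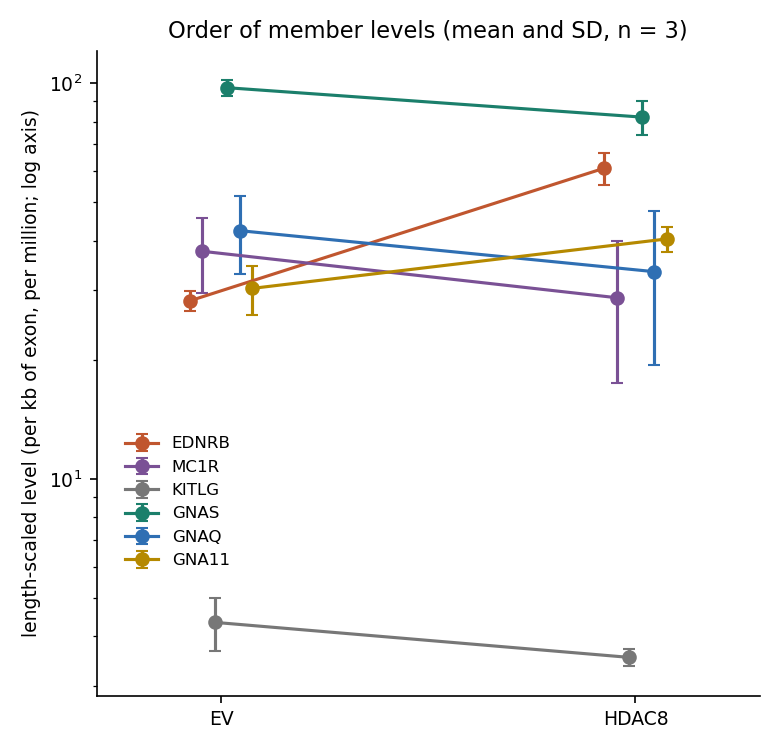
Length-scaled level (y axis, log scale) of the 6 members with reads in every library in the EV and HDAC8 groups (x axis), as mean and SD of 3 libraries. EDNRB goes from the fifth place (28.2) to the place after GNAS (61.0).

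Other genes of these pathways were taken from a list of 114, of which 105 were tested and 100 had an adjusted p. DESeq2 called 9 higher and 12 lower, 21% of the 100 against 11% of all genes. In 44 of the 105, or 41.9%, the groups did not overlap, against 24% of all genes tested. The median log2 fold change was -0.17. As for the members, the genes behind these shares, and behind those of the single sets below, were not matched for expression level. Whether more were called or separate than among genes of similar level was therefore not tested. A further 4 genes of the list had an adjusted p under 0.05 with a smaller fold, 2 in each direction. Of the 21 called genes, 20 met the conditions for being named, and RGS5 did not because its groups overlapped.

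On the ligand side, ECE1, which encodes an enzyme that cuts endothelin precursors into active peptides, rose from 6366 ± 1150 to 11440 ± 1320 normalized counts (SD, n = 3; log2 fold change 0.85 ± 0.16 SE, DESeq2 adjusted p = 6.01e-06). EDN3, an endothelin gene, had counts of 41, 54 and 24 in EV and 27, 37 and 1 in HDAC8 and was not called. CPE, a carboxypeptidase gene of prohormone processing, rose from 46.34 ± 2.12 to 150.7 ± 50.7 normalized counts (DESeq2 adjusted p = 0.03). ATRNL1, which encodes an attractin-like protein, fell from 484.8 ± 81.4 to 163.1 ± 92.0 (DESeq2 adjusted p = 0.00267). Of the other 6 melanocortin receptor and accessory genes, 5 were at or under the floor, and MRAP2 was not called. DESeq2, edgeR and limma-voom each called 0 of the 12 KIT adaptors and regulators, and 3 had an unadjusted DESeq2 p under 0.05. These are too few genes to set apart from the 11% called among all genes.

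In the cAMP branch, 2 of 19 genes were higher and 1 was lower, together 15.8% against 11% of all genes. PRKAR1B, a regulatory subunit gene of protein kinase A, rose by a log2 fold change of 2.20, and ADCY7, an adenylyl cyclase gene, by 1.27. ADCY2, another adenylyl cyclase gene, went from 2036 ± 142 to 610.7 ± 91.3 normalized counts (SD, n = 3; log2 fold change -1.74, DESeq2 adjusted p = 2.3e-15). Of 10 genes for cAMP phosphodiesterases, enzymes that break cAMP down, 3 were called, each lower, where 5.44% of all genes were called lower. A count of 3 says nothing particular about the family. PDE3B had normalized counts of 3910.2, 3478.0 and 3665.7 in EV and 1008.1, 1031.3 and 1148.8 in HDAC8 (log2 fold change -1.79 ± 0.16 SE, DESeq2 adjusted p = 5.01e-26). The log2 fold change was -2.46 for PDE3A and -0.64 for PDE4D. Groups that do not overlap were a condition for naming these genes, so their separation is no further result.

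In the Gq branch, 2 of 14 genes were higher and 2 were lower, together 28.6% against 11% of all genes. PRKCB, a protein kinase C gene, had normalized counts of 116.4, 74.7 and 90.6 in EV and 372.0, 394.3 and 381.1 in HDAC8 (log2 fold change 2.03 ± 0.38 SE, DESeq2 adjusted p = 5.28e-06). ITPR3, a receptor gene for inositol trisphosphate, rose by 0.74 on the log2 scale, and its relative ITPR1 had a log2 fold change of -0.64. PLCB1, a phospholipase C gene that Gq proteins activate, went from 232.6 ± 29.8 to 40.28 ± 26.9 normalized counts (SD, n = 3; log2 fold change -2.53, DESeq2 adjusted p = 0.00026). The 2 inositol trisphosphate receptor genes called thus moved in opposite directions, as did the 2 adenylyl cyclase genes called.

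Of the other alpha subunit genes, GNA13 (log2 fold change -0.74) and GNAZ (-1.35) were lower among 8 with an adjusted p. Of 12 beta and gamma subunit genes GNG4 was lower (-1.21). The shares called were 25% and 8.33%, against 11% of all genes, where 5.44% were called lower. These counts are too small to set apart from the shares of all genes. Among 14 genes that shut off receptors and G proteins, 3 were higher and 2 lower, together 35.7% against 11% of all genes. RGS16, which speeds the turn-off of G proteins, had normalized counts of 14.7, 17.7 and 16.8 in EV and 136.0, 130.1 and 138.3 in HDAC8 (log2 fold change 3.04 ± 0.65 SE, DESeq2 adjusted p = 7.58e-05). ARRB1, an arrestin gene, rose by a log2 fold change of 0.94. GRK3, a receptor kinase gene, had a log2 fold change of -0.84 and RGS10 of -1.10. Groups that do not overlap were a condition for naming these 4 genes, so this is no further result. RGS5, the other called gene of the set, was higher and did not meet that condition.

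**Figure D5:**
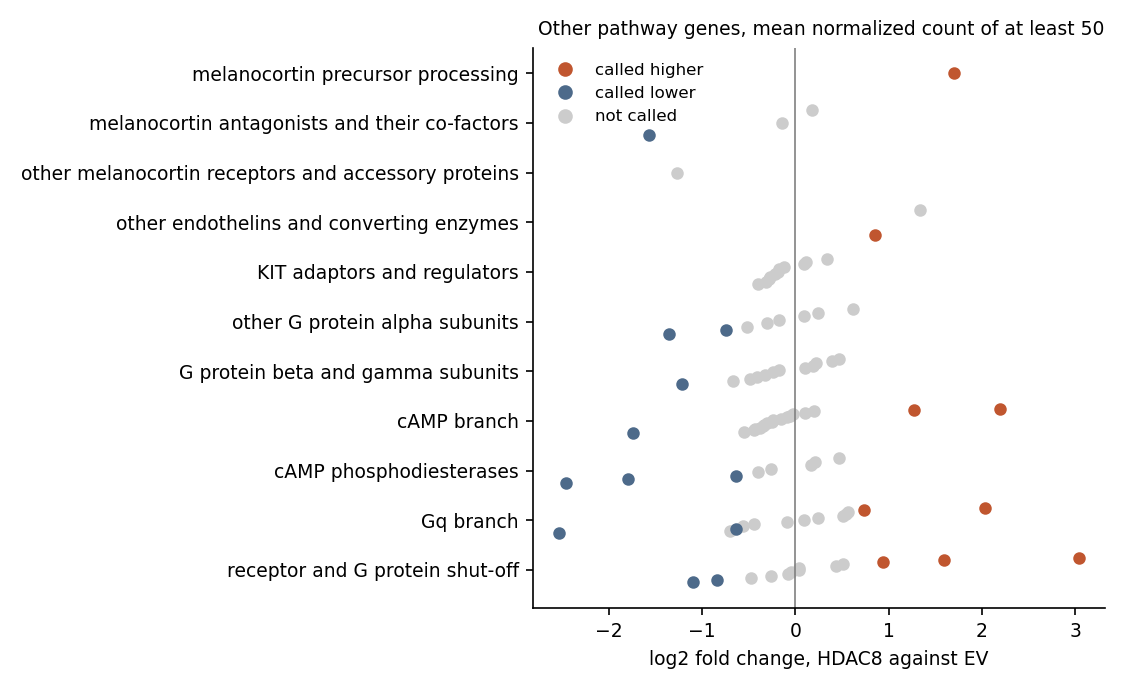
Log2 fold change of HDAC8 against EV (x axis) for the 90 tested pathway genes whose normalized counts averaged 50 or more, grouped by set (y axis). Each point is a gene, with genes called higher in orange, called lower in blue and not called in grey. The 3 called phosphodiesterase genes are lower, and the Gq branch and shut-off sets hold calls in both directions.

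Markers of other cell types were examined because KITLG, EDNRB and KIT are also expressed outside the pigment lineage. Summed length-scaled levels of 4 endothelial markers were 0.856 to 1.67 in EV and 1.09 to 2.13 in HDAC8, with CDH5 at 0 in all libraries. For 4 mast cell markers they were 0 to 0.871 and 0 to 1.71, with CPA3 at 0. For 4 keratinocyte markers they were 4.74 to 11.1 and 7.10 to 7.71, with KRT1 at 0. For 5 fibroblast markers, mostly LUM, they were 65.5 to 92.2 and 40.5 to 76.8, with DCN at 0. The 4 leukocyte markers summed to 0 to 0.448 in EV and 2.06 to 3.25 in HDAC8, and the rise was in CD3E (0 in EV and a mean of 73.3 normalized counts in HDAC8). Their part in the results was not tested.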

How the data were processed

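Gene expression was measured by RNA-seq in 6 libraries of WM164 cells, grouped by the labels. The authors trimmed reads with Trimmomatic, aligned them with STAR and deposited expected counts per gene estimated by RSEM, not scaled between libraries. The genome build and strand setting are not given in the sources used here. RSEM divides a read that matches several genes among them.

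Counts were rounded and compared by DESeq2 1.42.0 in R 4.3.3 (Wald test, two-sided; size factors 0.918 to 1.17; no covariates). Genes entered with 10 or more counts in total, which left 26162. P-values were adjusted (Benjamini-Hochberg) over the 21021 genes kept by the default filtering of DESeq2. The 5141 genes without an adjusted p were left out of counts of calls. Normalized counts are counts divided by size factors. The floor was 3 counts and intervals are at 95%. GENCODE 44 was joined by Ensembl identifier (56558 found).

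Alternatives were edgeR 4.0.16, limma-voom (limma 3.58.1), a test against the fold minimum, other size factors and filters, no mitochondrial genes, a replicate block and each library left out. On simulated data with known changes, DESeq2, edgeR and limma-voom each made a larger share of false calls than the 0.05 threshold states, fewest with limma-voom. The simulated data held far fewer changed genes than were called here, so that share cannot be carried over to these calls. Whether more of the calls here are false than the threshold states was not tested. Named are all members, HDAC8, and called pathway genes with a mean of at least 50 and fully separate groups, at most 3 per set and direction. GNAS-AS1, TUBB3, EDN3, MRAP2, RGS5 and the markers printed are named beside a result they touch, some of them after their values were seen. The members and lists were chosen with earlier results of these data known. Libraries of a group differed by more than sampling noise. The value of 1 marker gene is not reported here.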

Additional observations from a re-analysis of the deposited data

How the results depend on the processing

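Members called by DESeq2 numbered 1 in the reported fit, 0 when tested against the fold minimum itself, 2 (EDNRB and MC1R) where each library had to hold 10 counts, and 1 to 2 with each library left out (2 without HDAC8 1 or without HDAC8 2). The test against the fold minimum left 583 of 2313 calls over all genes and 7 of 21 among pathway genes, because the change must then exceed the minimum beyond its error. Of 104 alternatives of single members, 99 kept direction and side of the threshold, and 1 lost the call (EDNRB against the fold minimum). A further 4 gained it (MC1R in 3, GNAQ in 1) and 0 reversed. Of the MC1R gains, 1 was the fit with the readthrough gene, chosen after seeing the data and not a value of MC1R alone. The cause of the gained calls was not tested. Leaving out each library gave 1653 to 2485 calls over all genes. Replicate numbers did not pair the libraries (correlations of deviations -0.027, -0.066 and 0.04, and not every library correlated best with its own number). With the replicate block 1 member, 20 pathway genes and 2153 genes in all were called. With another length, that of the longest transcript, the length-scaled level over all libraries went from 89.8 to 221 for GNAS and from 35.4 to 42.8 for GNA11. Depth limits POMC, EDN1, EDNRA and KIT, which had too few reads for a difference to be detectable.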
